A study of Homo sapiens with 6 samples.

Results

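The netrin system was examined in SW480 cells, an established human colon adenocarcinoma line, after knockdown of the splicing factor RBM39. The 8 genes described were taken from a named list of netrin ligands and guidance receptors, out of 56303 gene symbols in the count table: the ligands NTN1 and NTN4, the netrin receptors DCC, NEO1, UNC5A, UNC5B and UNC5C, and the Slit receptor ROBO1. The list was selected on the group difference of UNC5B in these same counts, and the differences of the 8 genes between the groups are given as descriptions, with no p-value. Cells carried either a control hairpin (shCtrl, genotype given as WT) or a hairpin against RBM39 (shRBM39, genotype given as RBM39 knockdown). Both were delivered by lentivirus and the cells were selected with puromycin as stable lines, which the study calls clonal, so a difference between lines cannot be told apart from the knockdown. Each group had 3 libraries, with 18042924 to 20428901 counts per library. The study calls them independent replicate experiments of its stable lines, without saying at which step they were separated, and the p-values given below measure only the spread between these libraries.

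Netrins are secreted, laminin-related proteins that steer growing axons. They attract through DCC and NEO1 (neogenin) and repel through the UNC5 receptors, alone or together with DCC. DCC, whose name stands for deleted in colorectal carcinoma, and the UNC5 proteins are also known as dependence receptors, which can promote cell death when netrin is absent, and loss of their expression is known from colorectal tumours. In the intestine, netrin-1 is thought to act as a survival factor in this way.

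The knockdown and the identity of the cells were checked first. RBM39 had 441 ± 6.52 CPM (the count relative to the library total, scaled by edgeR's TMM factors) in shCtrl and 278 ± 13.3 CPM in shRBM39 (SD, n = 3), without overlap. Of 8 colon epithelium markers, 7 averaged at least 1 CPM, and their summed level was 11616 to 12444 CPM in shCtrl and 14687 to 15259 CPM in shRBM39. KRT8 and KRT18 made up most of that sum, with means of 6913 and 2936 CPM in shCtrl and 9296 and 3471 CPM in shRBM39. CDX2, the intestinal transcription factor in that list, had 21.7 CPM in shCtrl and 4.95 CPM in shRBM39. CDH17 fell as well, from 2.71 to 1.07 CPM, and VIL1 from 691 to 649 CPM. KRT20 rose from 0.309 to 1.12 CPM, and EPCAM and KRT19 overlapped between the groups. The part of these differences in the results below was not tested. Markers of other cell types were mostly low, with PTPRC (leukocytes), KDR (endothelium) and STMN2 (neurons) at 0 counts in all 6 libraries. TUBB3, a neuron marker, was an exception, at 32.1 CPM in shCtrl and 71.4 CPM in shRBM39. The summed level of 4 leukocyte markers was 0.235 to 0.644 CPM in shCtrl and 0.116 to 0.306 CPM in shRBM39. The 5 endothelial markers summed to 3.62 to 4.72 CPM in shCtrl and 6.75 to 8.16 CPM in shRBM39, the 5 fibroblast markers to 11.4 to 12.5 and 15.3 to 16.3 CPM, and the 5 neuron markers, mostly TUBB3 and SYP, to 41.9 to 47.3 and 81.8 to 89.6 CPM. These 3 sums were higher in shRBM39 in every library, and their part in the results below was not tested. Among their genes averaging at least 1 CPM, TUBB3, PECAM1, VWF and COL1A1 rose without overlap. SYP, LUM and PDGFRB overlapped between the groups.

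Promoter sequences from RefSeq (GRCh38.p14) matched 6 of the 8 genes, and UNC5B and NTN1 had no entry. Windows of 3 of them are printed, to set the most abundant receptor, a receptor that was barely detected and a ligand of low level side by side. Each is the 250 bases before a start site, 5′ to 3′ on the strand of the gene, for starts whose window held no GENCODE exon of the 8 genes. The NTN4 start and the proximal ROBO1 start lie inside the annotated gene. Capitals mark the GC box (GGGCGG), the CCAAT box (CCAAT) and the TATA box (TATAAA), searched on both strands.
ROBO1 distal start, chr3:79767999-79768248, minus strand: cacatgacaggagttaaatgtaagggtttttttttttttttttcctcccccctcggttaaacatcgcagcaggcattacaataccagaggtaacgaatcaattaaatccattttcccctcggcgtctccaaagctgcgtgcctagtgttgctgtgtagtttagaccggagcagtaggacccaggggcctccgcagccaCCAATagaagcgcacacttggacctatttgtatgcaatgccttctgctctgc
ROBO1 proximal start, chr3:79019460-79019709, minus strand: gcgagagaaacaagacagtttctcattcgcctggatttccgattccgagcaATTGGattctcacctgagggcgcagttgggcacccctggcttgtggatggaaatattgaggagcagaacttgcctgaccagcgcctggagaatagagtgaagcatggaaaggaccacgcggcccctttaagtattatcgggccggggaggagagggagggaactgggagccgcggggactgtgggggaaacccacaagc
NTN4 internal start, chr12:95790765-95791014, minus strand: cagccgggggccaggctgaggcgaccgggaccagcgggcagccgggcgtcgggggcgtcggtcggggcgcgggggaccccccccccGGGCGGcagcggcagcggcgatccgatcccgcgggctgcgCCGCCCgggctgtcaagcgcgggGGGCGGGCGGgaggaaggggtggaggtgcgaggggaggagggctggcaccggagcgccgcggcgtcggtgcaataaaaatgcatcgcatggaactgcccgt
DCC, chr18:52339947-52340196, plus strand: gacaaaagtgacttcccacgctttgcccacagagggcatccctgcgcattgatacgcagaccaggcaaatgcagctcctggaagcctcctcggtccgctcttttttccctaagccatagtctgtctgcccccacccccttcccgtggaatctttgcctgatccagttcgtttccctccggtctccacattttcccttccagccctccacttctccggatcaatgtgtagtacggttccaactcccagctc
The printed NTN4 window held 4 GC boxes, overlapping ones included, and 36 CpG dinucleotides. A further NTN4 window, chr12:95791156-95791405, held a GENCODE exon and is not printed. It had 0 GC boxes and 20 CpG. Each ROBO1 window held 1 CCAAT box, with 9 CpG in the distal and 12 in the proximal window. The DCC window had none of the 3 motifs and 10 CpG. Of 35116 windows of the same length in the table, 42.6% held a GC box, 32% a CCAAT box and 10.7% a TATA box, and the median number of CpG was 11. The matches are descriptions of the reference sequence only.

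Levels were then compared between genes per length, in RPKM (the count scaled by exon length and by library total, as deposited). In shCtrl cells ROBO1 was by far the most abundant of the 8, at 22.6 ± 0.426 RPKM (SD, n = 3), followed by NEO1 at 4.08 ± 0.245 RPKM and UNC5B at 1.62 ± 0.21 RPKM. The 3 values of each of these genes lay above all 3 values of the next. NTN4 came next at 0.231 ± 0.0618 RPKM and NTN1 at 0.146 ± 0.0405 RPKM, and the values of these ligands overlapped. UNC5A stood at 0.047 ± 0.0357 RPKM and UNC5C at 0.0064 ± 0.00555 RPKM, while DCC was listed at 0.

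In shRBM39 cells the order of the highest pair was kept, with ROBO1 at 14.7 ± 0.127 RPKM and NEO1 at 3.14 ± 0.079 RPKM (SD, n = 3). NTN1 now ranked next, at 0.444 ± 0.0318 RPKM, with all 3 values above those of UNC5B at 0.132 ± 0.0487 RPKM. The values of UNC5B overlapped those of NTN4, at 0.0768 ± 0.0211 RPKM, and the values of NTN4 overlapped those of UNC5A, at 0.0588 ± 0.0118 RPKM. UNC5B thus stood next below NEO1 in shCtrl and below NTN1 in shRBM39, still above UNC5A in every library.

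**Figure D1:**
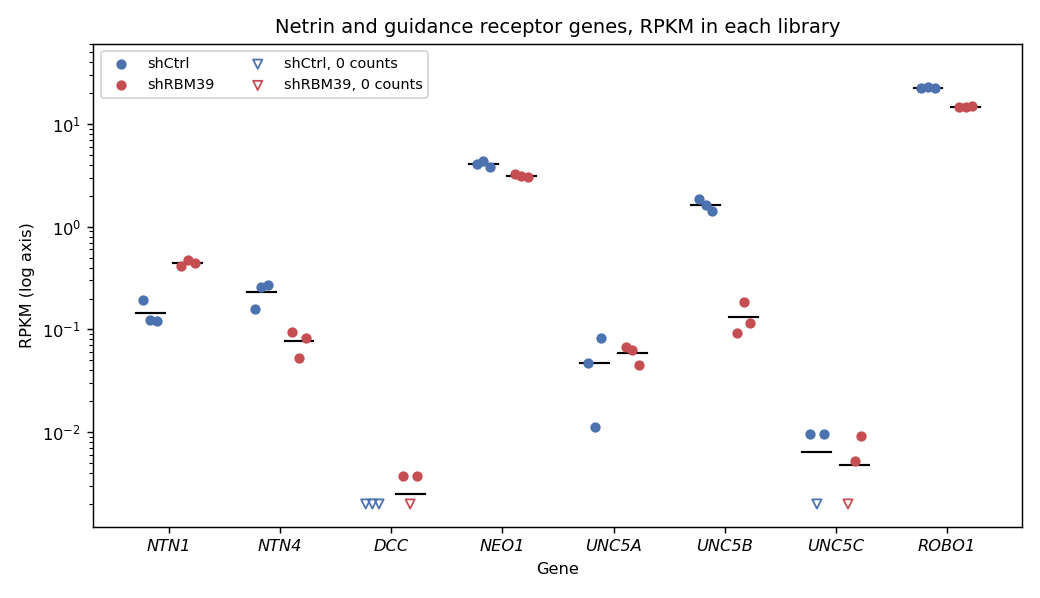
RPKM (log axis) of the 8 genes in each library, with shCtrl in blue and shRBM39 in red; black bars are group means of 3 libraries, and open triangles mark libraries with 0 counts. UNC5B fell from 1.62 to 0.132 RPKM on average, NTN1 moved the other way, and DCC and UNC5C lay at the limit of detection.

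Of the 8 genes, 5 passed the filter on low counts. The groups did not overlap for any of these, NTN1 lying above its shCtrl values and UNC5B, NTN4, NEO1 and ROBO1 below theirs. A gene outside the 8 was called when its Benjamini-Hochberg adjusted p in edgeR's quasi-likelihood test was below 0.05. Among all 18243 genes tested, calls were made for 59.1%, with 29.2% rising and 29.9% falling after knockdown. The groups did not overlap for 63.3%, with 31% rising and 32.3% falling. With library totals alone as the scaling, 33.9% of the calls were higher, against 49.4%. Since the list came from this same contrast, no calls are given for its members and nothing is read from their separation. NTN4, moreover, passed the filter only through shCtrl, where it was higher.

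UNC5B (ENSG00000107731, chromosome 10, 71212570 to 71302864, plus strand, GRCh38) encodes a netrin receptor with a death domain in its cytoplasmic tail, known from axon repulsion, from vessel sprouting and as a p53 target gene. Its 17 canonical exons span 90.3 kb. The 3 shCtrl libraries held 246, 223 and 189 counts of UNC5B, and the 3 shRBM39 libraries 13, 23 and 16. In CPM these were 12.2, 10.5 and 9.29 against 0.663, 1.33 and 0.825, so the lowest shCtrl library was well above the highest shRBM39 library. The mean was 10.7 ± 1.46 CPM in shCtrl and 0.941 ± 0.35 CPM in shRBM39 (SD, n = 3), so that 8.74% of the control level was left (log2 fold change -3.52, SE 0.17). Counted from the lowest fold change, UNC5B ranked 6 of 18243 tested genes, and 3 of the 12054 that averaged 5 CPM or more. Since the list was selected on this fall, the rank is a description only. Of all tested genes, 4.16% were called and lower by 2-fold or more, and 0.0603% by 8-fold or more. In bulk RNA, a smaller share of cells with UNC5B and less UNC5B RNA per cell cannot be told apart.

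The other UNC5 genes and DCC were too low to be compared. UNC5A (chromosome 5), a receptor known to bind the MAGED1 protein in cell death, had 4, 1 and 7 counts in shCtrl and 6, 5 and 4 in shRBM39. UNC5C (chromosome 4), whose silencing is known from colorectal tumours, had 2, 0 and 2 counts in shCtrl and 0, 1 and 2 in shRBM39. DCC (chromosome 18) had 0 counts in each shCtrl library, which allows up to 0.149, 0.141 and 0.147 CPM, and 1, 0 and 1 counts in shRBM39. The counts of all 3 genes overlapped between the groups, none exceeding 7, and a difference was not detectable at this depth.

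NEO1 (ENSG00000067141, chromosome 15, 73051710 to 73305205, plus strand) encodes neogenin, the DCC relative that also binds the repulsive guidance molecules. It had 642, 712 and 607 counts in shCtrl and 534, 459 and 503 in shRBM39. Scaled, these were 31.8, 33.5 and 29.8 CPM against 27.2, 26.6 and 25.9 CPM, a narrow separation without overlap. In shRBM39, 83.8% of the control level was left (log2 fold change -0.25, SE 0.06).

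The composition of netrin receptor mRNA therefore differed between the groups. NEO1 and UNC5B made up nearly all of it, so the shares below restate the UNC5B fall on which the list was selected. They are descriptions only. Within each library, where scaling cancels, NEO1 was 2.2, 2.69 and 2.71 times as abundant as UNC5B per length in shCtrl and 34.6, 16.8 and 26.5 times in shRBM39. UNC5B made up 28.2% ± 2.43 (SD, n = 3) of the summed RPKM of DCC, NEO1, UNC5A, UNC5B and UNC5C in shCtrl and 3.94% ± 1.41 in shRBM39. NEO1 supplied 70.9% ± 2.46 and 94.1% ± 1.42. The sum itself was 5.76 ± 0.341 RPKM in shCtrl and 3.34 ± 0.0868 RPKM in shRBM39. RPKM carries no TMM factors, which were 1.03 to 1.05 in shCtrl and 0.955 to 0.96 in shRBM39. The size of the difference in the sum therefore depends on the scaling.

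**Figure D2:**
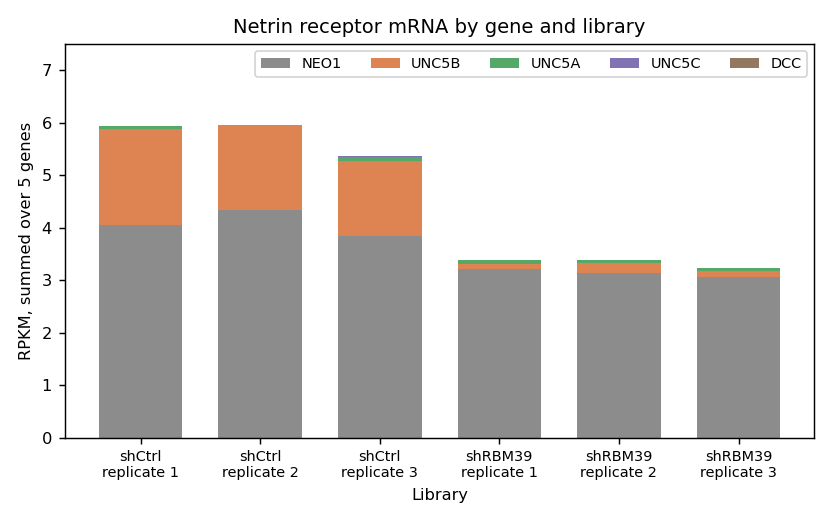
Stacked bars of RPKM for the 5 netrin receptor genes in each of the 6 libraries. The UNC5B segment shrank from 28.2% of the sum in shCtrl to 3.94% in shRBM39, and NEO1 made up nearly all of the rest. The shares restate the UNC5B fall on which the list was selected.

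The 2 ligands moved in opposite directions. NTN1 (ENSG00000065320, chromosome 17, 9021510 to 9244000, plus strand), which encodes netrin-1, the main ligand of DCC and the UNC5 receptors, had 24, 16 and 15 counts in shCtrl and 54, 55 and 57 in shRBM39. In CPM these were 1.19, 0.753 and 0.737 against 2.75, 3.19 and 2.94, with every shRBM39 library above every shCtrl library. NTN1 was 3.3-fold higher (log2 fold change 1.72, SE 0.22), at a level that stayed below 1 RPKM.

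NTN4 (ENSG00000074527, chromosome 12, 95657807 to 95791189, minus strand) encodes netrin-4, a ligand found in basement membranes that binds laminin. It had 13, 22 and 22 counts in shCtrl and 8, 4 and 7 in shRBM39, that is 0.644, 1.03 and 1.08 CPM against 0.408, 0.232 and 0.361 CPM. The groups did not overlap, but the lowest shCtrl library, replicate 1, lay nearer to the shRBM39 libraries than to its own group. On average 37% of the control level was left (log2 fold change -1.43, SE 0.36). The ratio of NTN1 to NTN4 per length was 1.2, 0.475 and 0.445 in shCtrl and 4.41, 8.97 and 5.31 in shRBM39. NTN4 passed the filter only through shCtrl, where it was higher. Its direction, the contrast with NTN1 and this ratio are therefore descriptions only.

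ROBO1 (ENSG00000169855, chromosome 3, 78597239 to 79767998, minus strand) encodes a receptor for Slit proteins that can silence the attraction to netrin by binding DCC. It was measured most precisely, with 4761, 5084 and 4722 counts in shCtrl and 3248, 2856 and 3257 in shRBM39. These were 236, 239 and 232 CPM against 166, 166 and 168 CPM, with the groups far apart relative to their spread. This left 70.6% of the control level (log2 fold change -0.50, SE 0.04).

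The genes beside UNC5B were examined to see whether the fall extended along the chromosome. Of the other 5 tested genes starting within 500 kb, none approached it. CDH23, a cadherin gene of the inner ear, rose by 1.34 on the log2 scale (edgeR adjusted p 5.6e-09), with 2.13 ± 0.316 CPM in shCtrl and 5.43 ± 0.839 CPM in shRBM39 (SD, n = 3). PCBD1, a cofactor-recycling enzyme, rose by 0.35 (edgeR adjusted p 3.64e-07) and SGPL1, the sphingosine phosphate lyase, fell by 0.44 on the log2 scale (edgeR adjusted p 2.03e-11). SLC29A3, a nucleoside transporter and the nearest of them at 107 kb, had -0.31 (edgeR adjusted p 0.0104), but its 3 values overlapped between the groups. The remaining gene, a transcript averaging under 1 CPM, had -0.51 (edgeR adjusted p 0.212). UNC5B-AS1, an antisense transcript inside the gene, had 5, 2 and 3 counts in shCtrl and 1, 0 and 0 in shRBM39 and did not pass the filter. The strand setting of the counting is not given in the sources used here, so reads of the antisense pair may not be fully separated.

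**Figure D3:**
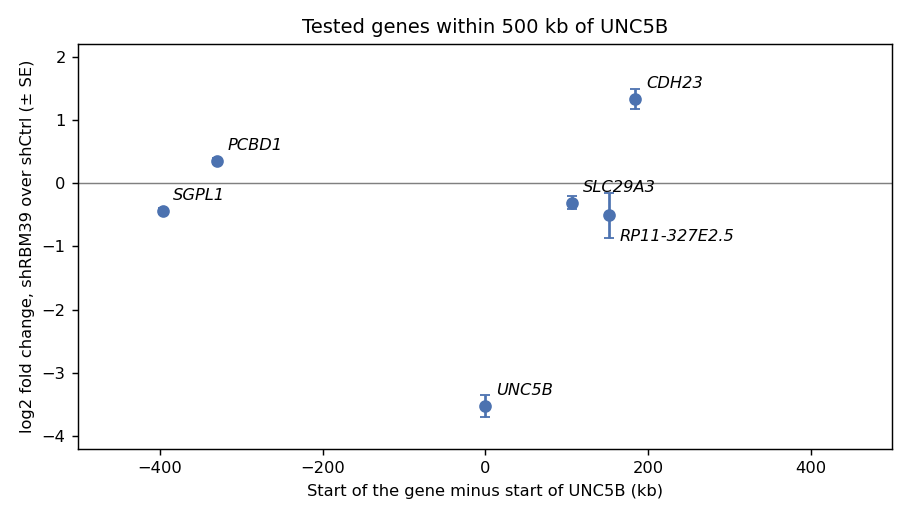
Log2 fold change (shRBM39 over shCtrl, ± standard error) of the 6 tested genes starting within 500 kb of UNC5B, against the distance of their starts in kb. UNC5B at -3.52 lies apart from its neighbours, which range from -0.51 to 1.34.

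The 5 genes whose pattern over the 6 libraries lay nearest to that of UNC5B, by Euclidean distance between centred log2 CPM values, were FREM1, PSD2, PRSS1, A2M and AC097468.4, with distances of 0.665, 0.844, 1.01, 1.06 and 1.2. Their log2 fold changes were -3.95, -3.05, -4.24, -2.9 and -3.74 (SE 0.21, 0.14, 0.14, 0.28 and 0.45). FREM1, A2M and AC097468.4 had at most 10 counts in a shRBM39 library. These 3 passed the filter only through shCtrl, where they were higher. Because the libraries fall into 2 groups, nearness here mostly reflects the size of the difference, and 283 of 18242 genes had a Pearson correlation with UNC5B above 0.99.

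Pathway genes outside the 8 were tested next, from 7 lists with 83 genes, of which 58 passed the filter. Of these 58, 43 were called, 17 higher and 26 lower in shRBM39, or 74.1% against 59.1% of all genes. The 43 include PLXNA4 and EPHA8, which passed the filter only through the group where each was higher. The counts of single lists below stand beside the same 59.1%, and no list was tested as a set. The median log2 fold change over the 58 was -0.12, against -0.01 over all genes tested. With scaling by library totals alone the split was 12 higher and 35 lower, against 17 and 26.

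Among the other ligands, 3 of 7 could be tested and all 3 were called, 2 higher and 1 lower, with a median log2 fold change of 0.22. DRAXIN, a secreted repulsive protein that binds DCC, rose by 1.11 on the log2 scale, with 1.38 ± 0.06 CPM in shCtrl and 2.99 ± 0.497 CPM in shRBM39 (SD, n = 3; edgeR adjusted p 8.6e-06). The neogenin ligands diverged. RGMB fell by 0.76 on the log2 scale (edgeR adjusted p 1.88e-06) and RGMA rose by 0.22 (edgeR adjusted p 0.004), a call that was lost with scaling by library totals alone, at 0.10. NTN3, NTN5, NTNG1 and NTNG2 did not pass the filter.

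Of 8 other netrin receptors and UNC5 partners, 3 could be tested and 1 was called, higher, with a median of 0.30. FLRT1, a member of the leucine-rich repeat family whose relatives bind UNC5 proteins, rose by 1.11 on the log2 scale, with 1.25 ± 0.331 CPM in shCtrl and 2.71 ± 0.277 CPM in shRBM39 (SD, n = 3; edgeR adjusted p 2.19e-05). CDON and FLRT3 were not called, at 0.10 and 0.30 (edgeR adjusted p 0.401 and 0.312). UNC5D had 0 counts in every library, and UNC5B had the highest level per length of the UNC5 genes in all 6 libraries.

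Of 9 Slit and Robo genes, 4 could be tested and 2 were called, both lower, or 50% against 59.1% of all genes. The median over the 4 was -0.29. ROBO2 fell by 0.77 on the log2 scale (edgeR adjusted p 0.00244), from 2.37 ± 0.425 to 1.4 ± 0.314 CPM (SD, n = 3), a call that was lost on log2(RPKM + 1), at -0.09. SRGAP1, a GTPase-activating protein that binds Robo tails, fell by 0.47 on the log2 scale (edgeR adjusted p 0.00136). SRGAP2 and SRGAP3 had -0.11 and 0.11 (edgeR adjusted p 0.0666 and 0.466). No Slit gene passed the filter, with at most 12 counts in a library for SLIT1.

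Of 23 intracellular effectors of DCC and UNC5, 21 could be tested and 16 were called, 7 higher and 9 lower, with a median of -0.07. CDC42, a small GTPase of the growth cone, and PITPNA, a phosphatidylinositol transfer protein that binds DCC and NEO1, rose by 0.59 and 0.58 (edgeR adjusted p 1.42e-13 and 1.07e-14). ABLIM1, an actin-binding protein, fell by 0.60 on the log2 scale (edgeR adjusted p 7.29e-12). DAPK1, the death-associated kinase that binds the UNC5B tail, had at most 1 count in any library.

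Other guidance receptor families were tested for comparison. Of 11 plexins and neuropilins, 10 could be tested and 7 were called, 1 higher and 6 lower, with a median of -0.22. The 6 lower include PLXNA4, which passed the filter only through shCtrl, where it was higher. PLXNB3, PLXND1 and PLXNA2, semaphorin receptors, fell by 0.92, 0.79 and 0.69 on the log2 scale (edgeR adjusted p 8.43e-14, 2.09e-17 and 0.000115), and NRP1 rose by 0.42 (edgeR adjusted p 0.00906). The call of NRP1 was lost with scaling by library totals alone, at 0.30. Of 14 Eph receptors, 10 could be tested and 8 were called, 5 higher and 3 lower, with a median of 0.06. The 5 higher include EPHA8, which passed the filter only through shRBM39, where it was higher. Among the 8 called were EPHA3 at -0.998, EPHA10 at -0.49, EPHA1 at 0.55 and EPHB6 at 0.53 (edgeR adjusted p from 8.15e-13 to 0.00398).

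Of 11 dependence receptors outside the netrin family, 7 could be tested and 6 were called, 1 higher and 5 lower, with a median of -0.42. NGFR, the low-affinity neurotrophin receptor, rose by 1.06 on the log2 scale, with 15.6 ± 0.343 CPM in shCtrl and 32.5 ± 0.767 CPM in shRBM39 (SD, n = 3; edgeR adjusted p 1.79e-16). INSR, PTCH1 and MET, receptors for insulin, hedgehog and hepatocyte growth factor, fell by 0.68, 0.67 and 0.42 on the log2 scale (edgeR adjusted p 1.45e-07, 5.92e-09 and 6.28e-10).

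**Figure D4:**
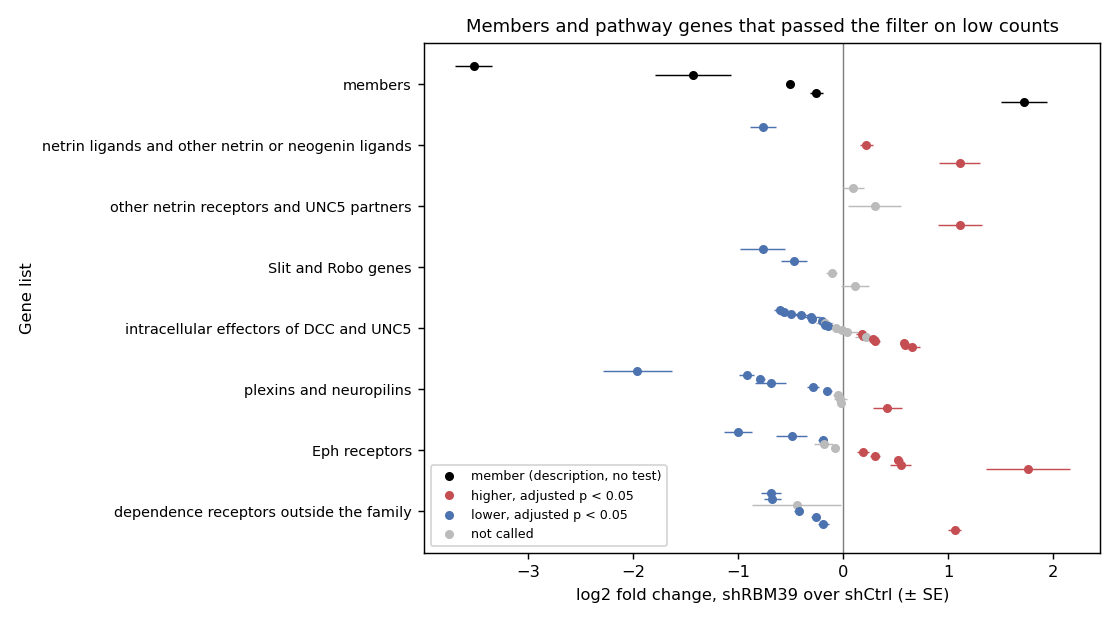
Log2 fold change (shRBM39 over shCtrl, ± standard error) of the 5 members that passed the filter, in black, and of the 58 pathway genes by list, with those called higher in red, called lower in blue and not called in grey. UNC5B, chosen for its fall in these counts, lies at -3.52, below every pathway gene. The lowest of these, PLXNA4 at -1.96, and the highest, EPHA8 at 1.76, each passed the filter only through the group where it was higher. The same holds for the member NTN4, which was higher in shCtrl.

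Splicing was looked up in the authors' table of rMATS records, a selection that the authors made for differences between the groups. None of its 1582 records belonged to the 8 genes or to the 83 pathway genes: the count was 0 for both sets. Low depth limits this, since UNC5A, UNC5C and DCC had at most 7 counts and 25 pathway genes did not pass the filter. UNC5B had only 13 to 23 counts in the shRBM39 libraries. Over all libraries NTN4 had 4 to 22 and NTN1 15 to 57 counts. The absence of a record is therefore not read as an absence of splicing differences. Other events of these genes were not analysed here.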

How the data were processed

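The study sequenced mRNA of SW480 cells from a stranded kit with unique identifiers, in 3 shCtrl and 3 shRBM39 libraries. Groups and replicate numbers came from sample titles, and NC columns were taken as the shCtrl libraries. Raw counts by gene symbol were deposited by the authors, in featureCounts layout. The submitters' processing notes name Trimmomatic 0.36, STAR 2.5.3a, Subread 1.5.1, edgeR 3.12.1 and GRCh38, without roles. How multi-mapped reads and identifiers were handled is not given in the sources used here, which bears most on low genes. The deposited RPKM values equalled those recomputed from counts, lengths and totals. Of the deposited splicing table, which also holds read counts, inclusion levels, p-values, FDR and inclusion differences of the authors' comparison, only gene names were used. Of 708 exon entries of the 8 genes, 97.6% were identical to GENCODE release 44 exons, the source of coordinates and exon numbers.

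edgeR 4.0.16 in R 4.3.3 was run on the counts with filterByExpr, TMM and group as the sole factor, by its quasi-likelihood test, adjusting p (Benjamini-Hochberg) over 18243 genes at 0.05. The standard error is the log2 fold change over the root of F. CPM carry TMM factors, and log2 CPM for the nearest genes used a prior count of 2. The code was tested on simulated data. Replicate pairs differed beyond sampling noise (chi-square over degrees of freedom 2.11 to 4.21). The limit for 0 counts is 3 counts per library and covers counting error only.

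The members and lists were chosen with earlier results of these data known. Named were all members, up to 4 genes per list (called, no overlap, averaging at least 1 CPM, largest fold change), tested neighbours within 500 kb and the 5 nearest genes. UNC5B-AS1 and list genes outside this rule were named after their values were seen. A gene that met the rule is not reported here. Tried besides were limma-trend 3.58.1 on log2(RPKM + 1) or log2(RPKM + 0.1), DESeq2 1.42.0, scaling by upper quartiles or by totals, no filter or a minimum of 10 counts in each library, a block on replicate number, leaving out single replicates, Pearson likeness and a threshold of 0.01.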

Additional observations from a re-analysis of the deposited data

How the results depend on the processing

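The 5 members that passed the filter kept their direction in every alternative in which they could be fitted, 14 each for UNC5B, NTN1, NEO1 and ROBO1 and 13 for NTN4, which dropped out with at least 10 counts in every library. These are refits of the counts that led to the list and no independent support. With 1 replicate left out, UNC5B ranged from -3.83 to -3.31, the former without shRBM39 replicate 2, NTN1 from 1.61 to 1.98, NTN4 from -1.62 to -1.24, NEO1 from -0.29 to -0.21 and ROBO1 from -0.51 to -0.49. On log2(RPKM + 1), which shrinks low genes by construction, UNC5B was at -1.21, NTN1 at 0.33 and NTN4 at -0.19, and on log2(RPKM + 0.1) NTN1 was at 1.16 and NTN4 at -0.89. Of all genes tested, 5327 were called higher and 5463 lower, against 3530 higher and 6981 lower with pseudocount 1 and 3535 higher and 6984 lower with pseudocount 0.1 on the RPKM scale, a shift of balance with a similar total. The pathway genes shifted likewise, from 17 higher and 26 lower to 11 and 33 with pseudocount 1 and to 11 and 34 with pseudocount 0.1. Library totals alone moved the median of all genes by -0.12, and 33.9% of calls were then higher, against 49.4%. RGMA and NRP1 lost their calls with library totals alone (0.10 and 0.30), on log2(RPKM + 1) (0.06 and 0.08) and on log2(RPKM + 0.1) (0.09 and 0.24), and ROBO2 lost its call on log2(RPKM + 1), at -0.09; the cause was not tested. With Pearson's correlation as the measure of likeness, 0 of the 5 genes nearest to UNC5B were the same. The replicate number as a block gave 5340 calls higher and 5470 lower and changed no call of a named pathway gene. Same-numbered libraries did not deviate together (correlations of 0.01, -0.03 and 0.00), so the numbers are not known to pair the samples. No setting reversed a member or a named pathway gene. Depth limits UNC5A, UNC5C and DCC, with at most 7 counts in a library, and NTN4, with at most 22.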

Other observations

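Several values outside the rule for named genes were chosen after they were seen. NTN5, a further netrin gene, had 10, 10 and 9 counts in shCtrl and 1, 1 and 1 in shRBM39, without overlap, and did not pass the filter. PLXNA4, a semaphorin receptor gene, had 25, 32 and 38 counts in shCtrl and 12, 7 and 3 in shRBM39, a log2 fold change of -1.96. EPHA8, an Eph receptor gene, had 5, 6 and 3 counts in shCtrl and 17, 11 and 16 in shRBM39, a log2 fold change of 1.76. PLXNA4 and EPHA8 passed the filter only through the group where each was higher, so no p-value is given for them. Among the effectors, FYN, a Src family kinase that acts downstream of DCC, fell by 0.57 on the log2 scale (edgeR adjusted p 1.34e-14). SIAH1 and SIAH2, ubiquitin ligases known to target DCC for degradation, fell by 0.50 and 0.40 (edgeR adjusted p 0.000164 and 3.01e-05). MAGED1, the UNC5A partner, rose by 0.31 (edgeR adjusted p 9.07e-08).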
